A study of Mus musculus with 20 samples.

Results

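The activity-induced immediate early genes are a set of 10 genes, given by name: Fos, Fosb, Junb, Egr1, Egr2, Nr4a1, Npas4, Ier2, Arc and Dusp1. All 10 were found by symbol among 53801 genes in the count tables and all 10 were among the 22181 genes with enough counts to be tested. They were measured in mouse hypothalamus, as total RNA depleted of ribosomal RNA and sequenced in 20 libraries. The WT groups are C57BL/6J mice, and the KO groups are mice with a double deletion of Magel2 and necdin (Ndn), a model of Prader-Willi syndrome. WT_day and KO_day hold 5 libraries each from 6 h after light on, and WT_night and KO_night hold 5 each from 18 h after light on, under 12 h of light and 12 h of dark with free food and water. The labels do not say whether each library is a separate animal, so each p-value measures the spread between these libraries.

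Immediate early genes are transcribed within minutes of a rise in neuronal activity, from transcription factors that are already present and need no new protein. Calcium entering through synaptic receptors and voltage-gated channels drives kinases that phosphorylate CREB and the partners of SRF, which bind the CRE and the CArG box upstream of these genes. Most products are transcription factors that act on later genes, while others act at the synapse or switch off the kinases. In the hypothalamus, Fos and its relatives are widely used as markers of neurons that were recently active, among them those of the light-driven clock and of feeding circuits.

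Library totals ran from 32066289 to 48697647 counts. The label check on the deleted genes held for all KO libraries, where Ndn stood at 0.248 to 1.01 CPM and Magel2 at 0 to 0.182 CPM (CPM, a gene's share of the TMM-scaled library total, the scale of every level here). The library labelled WT_day 3 did not match its label: its Ndn level was 31.0 CPM, 11.3% of the mean of 273 CPM in the other 9 WT libraries, and its Magel2 level was 2.16 CPM, 12.4% of theirs. It was kept in its labelled group, and the calls that rest on WT_day and the counts of lower means are given also without it. In 6 libraries (WT_night 1, KO_day 1 and 2, KO_night 1, 2 and 3) the time field of the labels contradicts the title, from which the groups were taken. All 12 hypothalamic markers were detected in every library, from Crh at 2.15 to 5.33 CPM to Pmch at 210 to 343 CPM. Libraries WT_night 3, 1 and 2 stood lowest on the first principal component of all genes. Their thalamic markers summed to 670, 567 and 549 CPM, above all other libraries (325 to 512 CPM). Their hypothalamic markers summed to 756, 872 and 811 CPM, below all other libraries (934 to 1250 CPM). The part of this tissue content in the WT_night levels was not tested.

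The sequences upstream of 4 of the genes are shown with letter matches to DNA elements such as the CRE. None of the 4 holds a match to the CArG box, and binding was not measured. RefSeq (GRCm38.p6) gives promoter windows for 7 of the 10 genes, and the 250 bases before the start are printed 5′ to 3′ on the gene's strand for Fosb and Fos, whose levels differed most between WT_day and WT_night, for Nr4a1 and for Dusp1. Capitals mark the core of the CRE (TGACG or its complement CGTCA, the CRE core site), the EGR site GCGNGGGCG or its complement, and in Dusp1 the full CRE TGACGTCA, which holds that core on each strand. The windows are chr7:19310046-19310295 (minus strand) for Fosb, chr12:85473640-85473889 (plus) for Fos, chr15:101266596-101266845 (plus) for Nr4a1 and chr17:26508473-26508722 (minus) for Dusp1. Those of Nr4a1 and Dusp1 lie inside the annotated gene spans given below, before a RefSeq start within the span and not before its first base.
Fosb: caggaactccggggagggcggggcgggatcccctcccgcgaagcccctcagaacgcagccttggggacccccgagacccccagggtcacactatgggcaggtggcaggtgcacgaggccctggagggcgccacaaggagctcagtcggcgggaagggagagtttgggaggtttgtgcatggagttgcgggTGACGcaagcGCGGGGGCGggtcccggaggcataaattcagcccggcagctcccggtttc
Fos: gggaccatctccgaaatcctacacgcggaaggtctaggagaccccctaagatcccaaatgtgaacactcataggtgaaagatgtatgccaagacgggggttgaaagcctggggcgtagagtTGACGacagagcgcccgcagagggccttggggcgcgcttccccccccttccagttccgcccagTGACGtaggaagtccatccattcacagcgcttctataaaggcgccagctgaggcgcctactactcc
Nr4a1: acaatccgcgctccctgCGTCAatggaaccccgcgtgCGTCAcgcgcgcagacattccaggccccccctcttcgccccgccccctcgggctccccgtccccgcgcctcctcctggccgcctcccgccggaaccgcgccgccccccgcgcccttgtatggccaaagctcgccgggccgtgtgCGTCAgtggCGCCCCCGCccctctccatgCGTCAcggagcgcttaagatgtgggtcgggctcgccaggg
Dusp1: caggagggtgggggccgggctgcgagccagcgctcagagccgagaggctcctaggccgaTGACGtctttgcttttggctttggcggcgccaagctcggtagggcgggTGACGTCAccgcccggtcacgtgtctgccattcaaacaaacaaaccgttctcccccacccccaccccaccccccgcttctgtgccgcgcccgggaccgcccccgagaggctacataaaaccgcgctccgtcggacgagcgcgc

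The 7 genes have 11 windows, 5 of them of Egr2 and 1 for each other gene. Egr2 windows 3, 4 and 5, whose first bases are 67537619, 67537620 and 67537680, overlap over most of their length. They hold the same CRE core sites and the same CArG box, so they are not separate cases. On either strand, the CRE core site is present in 9 of the 11 windows (all but 2 of Egr2), against 17.7% of all 32817 promoter windows of the same length. It lies 60 to 56 bases before the start in Fosb, and at 129 to 125 and 66 to 62 bases before it in Fos. The full CRE is in Dusp1 alone of the 7 (1.55% of all windows), and the EGR site, bound by Egr1 and Egr2, is in Fosb and Nr4a1 (4.7% of all windows). A CArG box was found in 4 of the Egr2 windows and in no other gene (1.47% of all windows), and the AP-1 site TGANTCA, bound by dimers of Fos and Jun proteins, in none of the 11 (6.75% of all windows). A match is a match of letters in this window only.

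Across the 20 libraries, the mean level ran from 0.46 CPM for Egr2 and 0.841 CPM for Fosb to 16 CPM for Junb, with 10 to 926 counts per gene and library. Per kilobase of exon, the mean level was highest for Junb (6.94 CPM per kb), then Arc (2.66), Dusp1 (2.65), Fos (2.21), Nr4a1 (1.61), Egr1 (1.01), Ier2 (0.76), Npas4 (0.413) and, level with each other, Fosb and Egr2 (0.135). The counts appear to cover whole gene spans, introns included. Per kilobase of span Dusp1, whose annotated span is 56.5 kb, stood at 0.155 CPM per kb and Nr4a1 at 0.275, both below Egr1 (0.88) and Npas4 (0.287). WT_day had the highest mean of the 4 groups for 8 of the 10 genes, and WT_night the lowest mean for 8 of 10. Of all genes tested, 22.2% were highest in WT_day and 28.6% lowest in WT_night.

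**Figure D1:**
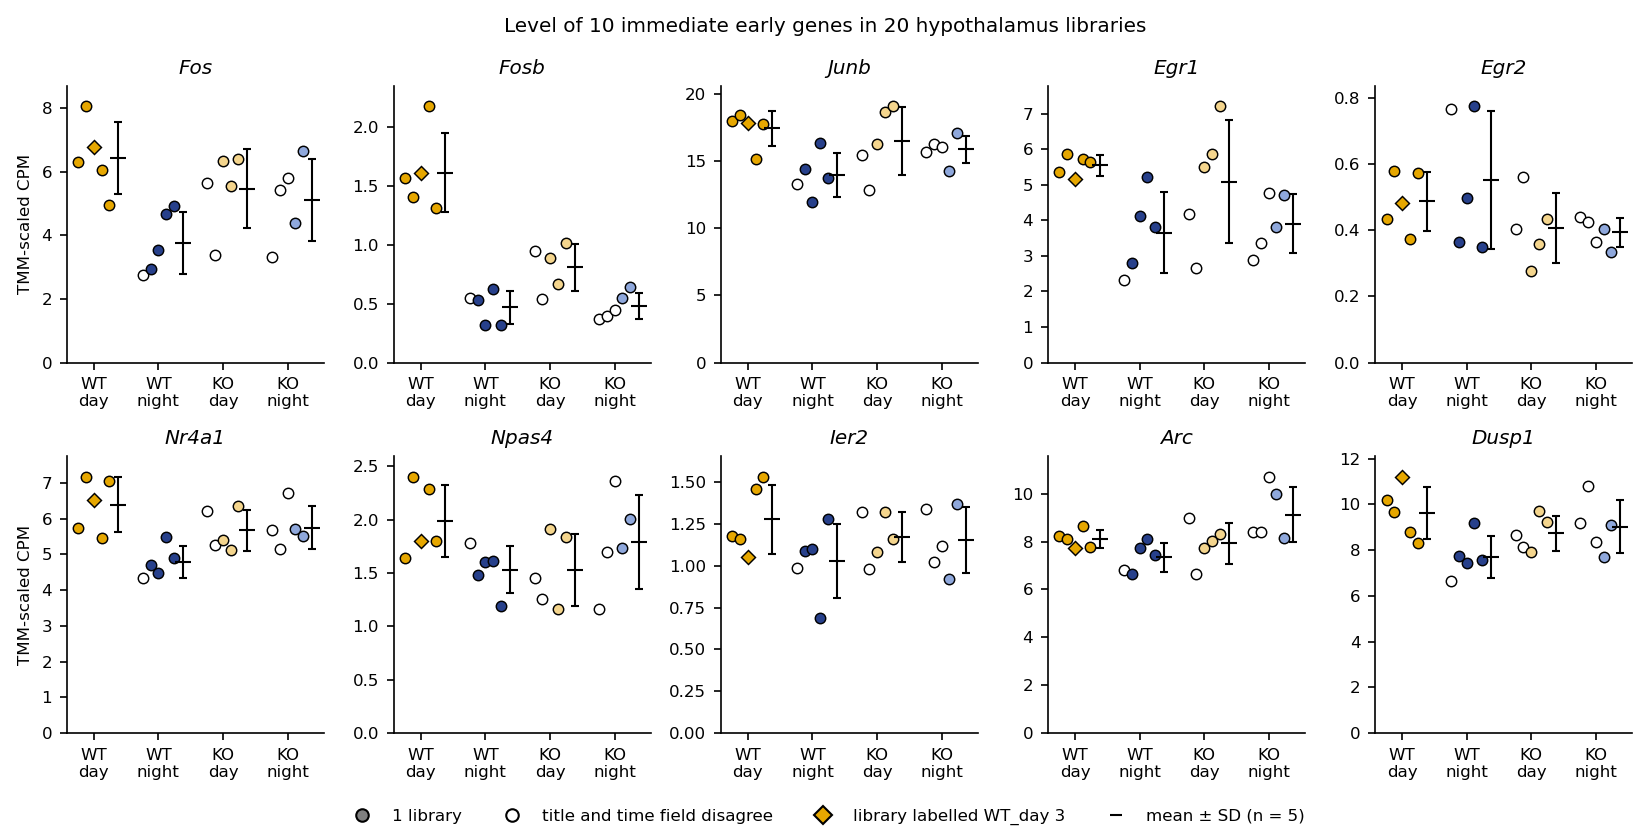
Level of each gene in every library (vertical axis, TMM-scaled CPM, from 0) by group (horizontal axis); open points are the 6 libraries whose title and time field disagree, the diamond is the library labelled WT_day 3, and bars are mean ± SD (n = 5). Fosb in the 5 WT_day libraries, at 1.31 to 2.17 CPM, lies above every other library, and Arc is highest in KO_night.

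Fosb, Fos and Junb encode subunits of the dimeric transcription factor AP-1, in which a Fos protein pairs with a Jun protein. Fosb (ENSMUSG00000003545, chromosome 7, 19302696 to 19310051, minus strand, GRCm38) also yields the truncated ΔFosB, which builds up with repeated stimulation. Its level was 1.56, 1.40, 1.61, 2.17 and 1.31 CPM in WT_day 1 to 5, and 0.548, 0.532, 0.314, 0.625 and 0.321 CPM in WT_night 1 to 5. In KO_day 1 to 5 it was 0.941, 0.538, 0.884, 0.662 and 1.01 CPM, and in KO_night 1 to 5 it was 0.373, 0.397, 0.442, 0.547 and 0.639 CPM. WT_day thus lay wholly above the other 3 groups. KO_day and KO_night overlapped only through KO_day 2, and WT_night and KO_night overlapped over most of their ranges.

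Fosb fell 3.43-fold from day to night in WT, by 1.78 ± 0.216 on the log2 scale (SE, edgeR adjusted p = 0.000231), from 1.61 ± 0.338 to 0.468 ± 0.142 CPM (SD, n = 5). By day it was 1.98-fold lower in KO than in WT, a log2 change of -0.99 ± 0.195 (edgeR adjusted p = 0.0395), at 0.807 ± 0.199 CPM. These 2 comparisons share the WT_day libraries. With the library labelled WT_day 3 left out, the day-to-night change in WT was -1.77 ± 0.232 (edgeR adjusted p = 0.00121) and the change in KO by day was -0.98 ± 0.212 (edgeR adjusted p = 0.0805), which did not pass.

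In KO the night-against-day log2 change of Fosb was -0.77 ± 0.23 (edgeR adjusted p = 0.11). At night the KO and WT levels were 0.48 and 0.468 CPM, a log2 change of 0.02 ± 0.256 (edgeR adjusted p = 0.963). Averaged over both genotypes, Fosb fell from day to night by 1.27 ± 0.158 on the log2 scale (edgeR adjusted p = 0.000706). With WT_day 3 removed that call held (edgeR adjusted p = 0.00215). Grouping by the time field in place of the title gave -1.68 ± 0.339 in WT (edgeR adjusted p = 0.119), -0.80 ± 0.24 averaged (edgeR adjusted p = 0.219) and 0.07 ± 0.337 in KO. With only the 14 libraries whose labels agree on time, the change in WT was -1.84 ± 0.23 (edgeR adjusted p = 0.002), and the KO effect by day was -0.90 ± 0.221 (edgeR adjusted p = 0.0966).

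Fos (ENSMUSG00000021250, chromosome 12, 85473890 to 85477273, plus strand), the most used marker of neuronal activation, stood at 6.30, 8.06, 6.78, 6.06 and 4.96 CPM in WT_day 1 to 5. In WT_night 1 to 5 it was 2.77, 2.94, 3.53, 4.67 and 4.92 CPM. All WT_night libraries were below all WT_day libraries, though WT_night 5 and WT_day 5 were close. The log2 change of -0.78 ± 0.191 did not pass (edgeR adjusted p = 0.0744), from 6.43 ± 1.13 to 3.77 ± 0.987 CPM. It passed in 2 of 28 alternatives, with DESeq2 (-0.77, adjusted p = 0.0308) and without the filter on low counts (edgeR adjusted p = 0.0295). The change was -0.75 without the library labelled WT_day 3 (edgeR adjusted p = 0.161), -0.54 by the time field (edgeR adjusted p = 0.452) and -0.42 without WT_night 1, 2 and 3 (edgeR adjusted p = 0.576). The KO groups overlapped, at 5.65, 3.37, 6.35, 5.57 and 6.42 CPM in KO_day 1 to 5 and 3.32, 5.42, 5.80, 4.40 and 6.66 CPM in KO_night 1 to 5, with a night-against-day log2 change of -0.10 ± 0.187 (edgeR adjusted p = 0.819).

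Junb (ENSMUSG00000052837, chromosome 8, 84974484 to 84978718, minus strand) encodes a Jun protein that pairs with Fos proteins. Its annotated span shares 351 bases with Prdx2 on the opposite strand, which stood at 88.6 to 127 CPM. The strand setting of the counts is not given, but the counts appear to be separated by strand. Junb was at 18.0, 18.5, 17.9, 15.2 and 17.8 CPM in WT_day 1 to 5 and at 13.3, 14.4, 12.0, 16.4 and 13.8 CPM in WT_night 1 to 5. WT_day 4 was the 1 low day library and WT_night 4 the 1 high night library, and only these 2 overlapped. The log2 change was -0.33 ± 0.0909 (edgeR adjusted p = 0.109). With WT_day 3 removed it was -0.31 (edgeR adjusted p = 0.221). The KO means were 16.5 ± 2.55 CPM by day and 15.9 ± 1.03 CPM at night.

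Egr1 and Egr2 encode zinc-finger transcription factors that bind the EGR site. Egr1 (ENSMUSG00000038418, chromosome 18, 34859823 to 34864984, plus strand) lay within 5.15 to 5.85 CPM in all 5 WT_day libraries, a CV of 5.16%. The WT_night libraries 1 to 5 spread over 2.33, 2.80, 4.11, 5.21 and 3.82 CPM, a CV of 31%, so that only WT_night 4 reached the day range. The log2 change was -0.60 ± 0.209 in WT (edgeR adjusted p = 0.174) and -0.39 ± 0.208 in KO (edgeR adjusted p = 0.33), where KO_day ran from 2.67 to 7.20 CPM and KO_night from 2.88 to 4.78 CPM.

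Egr2 (ENSMUSG00000037868, chromosome 10, 67535475 to 67542188, plus strand), better known for its part in hindbrain patterning and myelination, had 10 to 28 counts per library. It was the 1 gene of the 10 with its highest mean in WT_night, at 0.55 ± 0.209 CPM against 0.488 ± 0.0891 in WT_day, 0.407 ± 0.105 in KO_day and 0.393 ± 0.0435 CPM in KO_night. The WT_night mean rested on WT_night 1 and 4, at 0.767 and 0.774 CPM, with the other three at 0.35 to 0.498 CPM. Its log2 changes were 0.17 ± 0.237 for night against day in WT (edgeR adjusted p = 0.758) and -0.47 ± 0.246 for KO against WT at night (edgeR adjusted p = 0.199).

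Nr4a1 (ENSMUSG00000023034, chromosome 15, 101254269 to 101274795, plus strand) encodes the orphan nuclear receptor Nur77. It was at 5.73, 7.17, 6.53, 5.46 and 7.05 CPM in WT_day 1 to 5 and at 4.33, 4.70, 4.48, 5.48 and 4.90 CPM in WT_night 1 to 5. These groups met at a single point, WT_night 4 just above WT_day 4. The log2 change was -0.42 ± 0.0969 (edgeR adjusted p = 0.0619). It passed in 5 of 28 alternatives, with DESeq2 (adjusted p = 0.00782), without the filter on low counts (edgeR adjusted p = 0.0481) and without WT_night 4 (-0.46, edgeR adjusted p = 0.0445), KO_night 2 (edgeR adjusted p = 0.0496) or KO_night 4 (edgeR adjusted p = 0.0438). The change was -0.40 without the library labelled WT_day 3 (edgeR adjusted p = 0.143) and -0.30 without WT_night 1, 2 and 3 (edgeR adjusted p = 0.45). In KO the means were 5.67 ± 0.568 CPM by day and 5.75 ± 0.592 CPM at night, a log2 change of 0.02 ± 0.0957.

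Npas4 (ENSMUSG00000045903, chromosome 19, 4984355 to 4990316, minus strand) encodes a bHLH-PAS transcription factor induced by calcium in neurons and tied to inhibitory synapses. Its WT mean was 1.98 ± 0.336 CPM by day and 1.53 ± 0.217 CPM at night, and its KO mean was 1.52 ± 0.336 CPM by day and 1.79 ± 0.442 CPM at night. The WT mean was higher by day and the KO mean higher at night, with log2 changes of -0.37 ± 0.175 in WT (edgeR adjusted p = 0.309) and 0.22 ± 0.175 in KO (edgeR adjusted p = 0.532), and all groups overlapped. Ier2 (ENSMUSG00000053560, chromosome 8, 84661331 to 84662852, minus strand), which encodes a nuclear protein of the rapid growth-factor response, had 23 to 61 counts per library and stood at 1.27 ± 0.207, 1.03 ± 0.22, 1.17 ± 0.15 and 1.15 ± 0.196 CPM in WT_day, WT_night, KO_day and KO_night. Its log2 changes lay between -0.30 and 0.17 in the 4 pairwise comparisons, and none passed.

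Arc and Dusp1 act outside the nucleus or on signalling. Arc (ENSMUSG00000022602, chromosome 15, 74669083 to 74672570, minus strand) encodes a protein that promotes the removal of AMPA receptors from synapses. It was at 6.80, 6.66, 7.72, 8.10 and 7.43 CPM in WT_night 1 to 5 and at 8.41, 8.40, 10.7, 10 and 8.15 CPM in KO_night 1 to 5. Every KO_night library was above every WT_night library, with KO_night 5 and WT_night 4 nearest to each other. Arc rose 1.24-fold in KO against WT at night, by 0.32 ± 0.0873 on the log2 scale (edgeR adjusted p = 0.0264).

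The Arc call was lost with the time field (0.17 ± 0.112, edgeR adjusted p = 0.918), with agreeing labels only (0.28 ± 0.101, edgeR adjusted p = 0.351) and without WT_night 1, 2 and 3 (0.23 ± 0.118, edgeR adjusted p = 0.5), and without WT_night 1, 2 or 3 or KO_night 2 or 3 singly (edgeR adjusted p = 0.0579 to 0.0853). By day Arc stood at 8.10 ± 0.365 CPM in WT and 7.94 ± 0.858 CPM in KO, a log2 change of -0.03 ± 0.0867 (edgeR adjusted p = 0.955).

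Dusp1 (ENSMUSG00000024190, chromosome 17, 26505590 to 26562128, minus strand) encodes a phosphatase that switches off MAP kinases and is also induced by glucocorticoids. Its annotated span shares 640 bases with Ergic1 (82.0 to 90.9 CPM) and 956 bases with Gm8225 (0 to 0.28 CPM), both on the opposite strand. The strand setting is not given, but the counts appear to be separated by strand. Dusp1 was at 10.2, 9.67, 11.2, 8.78 and 8.31 CPM in WT_day 1 to 5 and at 6.66, 7.73, 7.44, 9.17 and 7.55 CPM in WT_night 1 to 5. WT_night 4 alone reached the day range, and the highest value of all was in the library labelled WT_day 3. The log2 change was -0.33 ± 0.0977 (edgeR adjusted p = 0.132), and was -0.25 ± 0.0995 with the library labelled WT_day 3 left out. The KO means were 8.73 ± 0.75 CPM by day and 9.03 ± 1.16 CPM at night.

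**Figure D2:**
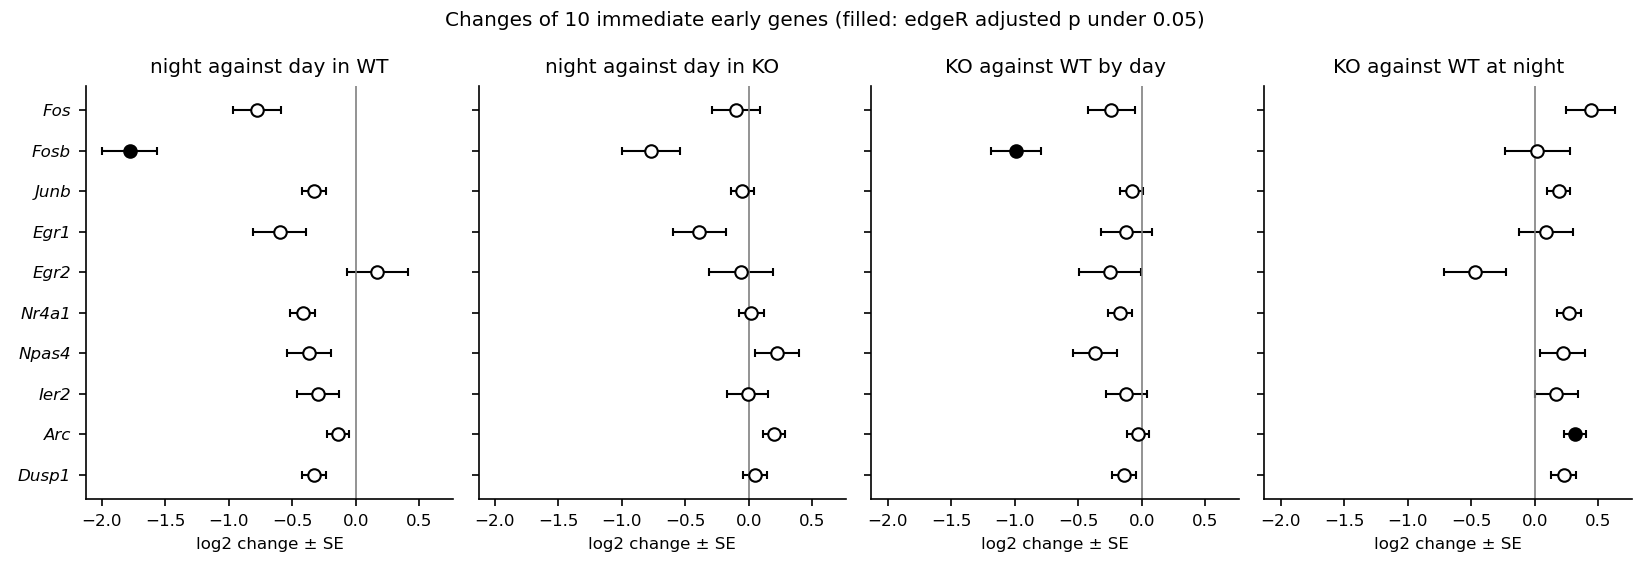
Log2 change ± SE (horizontal axis) of the 10 genes (vertical axis) in 4 comparisons, filled where the edgeR adjusted p was under 0.05. Fosb is filled for night against day in WT and for KO against WT by day, and Arc for KO against WT at night.

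Night against day in WT asks how these genes differ between the rest phase and the active phase of the mouse. Of the 10 genes, 9 had a lower mean at night and 1 (Egr2) a higher one, with a median log2 change of -0.35 against 0 for all genes tested. Fosb was the 1 gene that passed the edgeR test, against 0.275% of all genes. DESeq2 called 3 (Fos, Junb and Nr4a1), against 1.84% of all genes, and gave Fosb no adjusted p (unadjusted p = 1.25e-13). At an unadjusted edgeR p under 0.05 there were 7 of the 10, all lower at night, against 15.9% of all genes. Fos and Fosb lay wholly lower at night in WT (2.8% of all genes), and none of the 10 wholly higher (2.52% of all genes). With the library labelled WT_day 3 left out, the same gene passed and 9 of the 10 means were again lower at night. Without WT_night 1, 2 and 3 the median was -0.3, with 9 lower and Fosb passing (edgeR adjusted p = 0.033).

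In the same comparison, the summed levels of 2 marker lists of other cells or tissues did not overlap between the WT groups. The 8 endothelial markers summed to 149 to 152 CPM in WT_day and 155 to 172 CPM in WT_night, and the 7 striatal markers to 70.6 to 74.7 and 75.5 to 79.9 CPM. The 9 of 10 neuronal markers with counts (Tubb3 is listed at 0, inside an overlapping gene) summed to 2470 to 2590 and 2450 to 2620 CPM. Lower at night, as most of the 10 genes were, were all 7 pituitary markers (median log2 change -0.92, 1 at an unadjusted edgeR p under 0.05, none passing) and 7 of 12 hypothalamic markers (median -0.16, 5 at an unadjusted p under 0.05, none passing). The pituitary markers summed to 883, 143, 77.3, 59.4 and 48.1 CPM in WT_day 1 to 5 and to 36.1, 31, 35.4, 201 and 72.7 CPM in WT_night 1 to 5, and the hypothalamic ones to 934 to 1100 and 756 to 995 CPM. WT_day 1 was the highest for the pituitary and WT_night 1, 2 and 3 the lowest, and both lists overlapped between the groups. Of 10 housekeeping genes, 9 also had a lower mean at night in WT and 1 a higher one (median log2 change -0.08). Among them 2 had an unadjusted edgeR p under 0.05 and none passed. The part of these lists in the day and night levels was not tested. In bulk tissue, fewer cells that express a gene and less of its RNA per cell cannot be told apart.

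Night against day in KO gave no passing gene of the 10 by edgeR, against 0.0721% of all genes, and none by DESeq2, against 2.66%. At an unadjusted edgeR p under 0.05 there were 2 of the 10, Fosb with the lower level at night and Arc with the higher one (0.20 ± 0.0863, edgeR adjusted p = 0.22), against 17.7% of all genes. The median log2 change was -0.03, with 4 genes higher and 6 lower. No gene of the 10 lay wholly higher at night (1.63% of all genes) or wholly lower (0.879% of all genes). In KO, 5 of the 10 libraries have contradictory time labels. Among the other five, Fosb was at 0.884, 0.662 and 1.01 CPM by day and at 0.547 and 0.639 CPM at night.

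By day, all 10 genes had a lower mean in KO than in WT, with a median log2 change of -0.16 against -0.01 for all genes. Fosb fell and the other 9 did not pass, against 0.113% of all genes called. DESeq2 called none of the 10, against 0.857% of all genes, again with no adjusted p for Fosb (unadjusted p = 3.85e-06). At an unadjusted edgeR p under 0.05 there were 2, Fosb and Npas4 (-0.37 ± 0.172, edgeR adjusted p = 0.492), against 9.62% of all genes. Fosb was the 1 gene wholly lower in KO (1.24% of all genes), and none was wholly higher (1.48% of all genes). The Fosb call was lost without any 1 of the 5 WT_day libraries (edgeR adjusted p = 0.054 to 0.0888), without WT_night 2 (edgeR adjusted p = 0.0601) and without KO_day 2, 3 or 4 (edgeR adjusted p = 0.0594 to 0.107), with log2 changes of -1.08 to -0.85 over all 20 removals. All 10 means were lower also with the library labelled WT_day 3 left out. By the time field 7 of 10 had a lower mean, and with agreeing labels only, 8 of 10. All 7 pituitary markers also had a lower mean in KO by day (median log2 change -1.11, 4 at an unadjusted edgeR p under 0.05, none passing), with sums of 37.3 to 88.6 CPM in KO_day against 48.1 to 883 CPM in WT_day. Their part in the lower levels of the 10 genes was not tested.

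At night the direction of most means was the opposite, with 9 of the 10 genes higher in KO and Egr2 lower, and a median log2 change of 0.2 against 0.01 for all genes. Arc rose and the other 9 did not pass, in a comparison that called 11.9% of all genes, 1148 higher and 1501 lower. With a trend on gene length removed that split was 1563 higher and 488 lower, and Arc still passed (0.30 ± 0.0892, edgeR adjusted p = 0.0372). DESeq2 called Arc and Nr4a1 (0.27, adjusted p = 0.0465) of the 10, against 15.9% of all genes. At an unadjusted edgeR p under 0.05 there were 5 of the 10, all higher in KO, against 29.9% of all genes. Arc was the 1 gene wholly higher in KO (2.67% of all genes), and none was wholly lower (2.39% of all genes). Without WT_night 1, 2 and 3 the median was 0.1, with 8 higher and none passing. Without WT_night 4, Arc, Nr4a1 (0.32) and Dusp1 (0.29) passed, in a fit that called 19.5% of all genes. Housekeeping genes and markers of several cell types moved in the same direction, while markers of some others did not. Of 10 housekeeping genes, 9 had a higher mean in KO and 1 a lower one (median log2 change 0.1). Among them 4 had an unadjusted edgeR p under 0.05 and 2 rose. The 12 hypothalamic markers summed to 756 to 995 CPM in WT_night and 1030 to 1250 CPM in KO_night, and 3 of them rose. All 8 oligodendrocyte markers had a higher mean in KO and 3 rose (median log2 change 0.2), with sums of 2050 to 2540 and 2220 to 2960 CPM, and all 8 astrocyte markers had a higher mean and 2 rose (median 0.1), with sums of 2440 to 2790 and 2640 to 2960 CPM. Of 9 neuronal markers 7 had a higher mean, 6 had an unadjusted edgeR p under 0.05 and 3 rose (median 0.13), with sums of 2450 to 2620 and 2400 to 2670 CPM. All 5 choroid plexus markers had a lower mean in KO and 1 fell (median -0.18). Of 7 pericyte and smooth muscle markers 4 had a lower mean and none passed (median -0.13). Of 6 thalamic markers 3 had a lower mean and 1 fell (median -0.07), with sums of 397 to 670 CPM in WT_night and 325 to 445 CPM in KO_night. The part of all these markers in the Arc level was not tested.

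The interaction term tests whether the KO effect differed between night and day. It called none of the 10 by edgeR, in a test that called 0.0% of all genes. DESeq2 called 1 of the 10, Nr4a1 (0.43, adjusted p = 0.0402), against 5.48% of all genes. At an unadjusted edgeR p under 0.05 there were 7 of the 10 (22.1% of all genes), all with a KO effect higher at night, among them Fosb (1.01 ± 0.322, edgeR adjusted p = 0.0928) and Nr4a1 (0.44 ± 0.136, edgeR adjusted p = 0.0894). Both passed without WT_night 4 (edgeR adjusted p = 0.0455 and 0.04), where 6.95% of all genes did. Without the library labelled WT_day 3, Fosb was at 0.99 (edgeR adjusted p = 0.143) and Nr4a1 at 0.42 (edgeR adjusted p = 0.145). Of 10 housekeeping genes, 9 also had a KO effect higher at night (median 0.11, 4 at an unadjusted edgeR p under 0.05). So had all 8 oligodendrocyte markers (median 0.14) and all 7 pituitary markers (median 1.15), while all 5 choroid plexus markers had the opposite (median -0.22). Averaged over both times, KO against WT called none of the 10 by edgeR, against 1.31% of all genes, or by DESeq2, against 4.72%. At an unadjusted edgeR p under 0.05 there were 3 (Fosb, Egr2 and Arc), against 19.6% of all genes. Averaged over both genotypes, night against day called Fosb alone of the 10 by edgeR, against 0.117% of all genes. DESeq2 called none, against 0.965% of all genes, and gave Fosb no adjusted p.

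**Figure D3:**
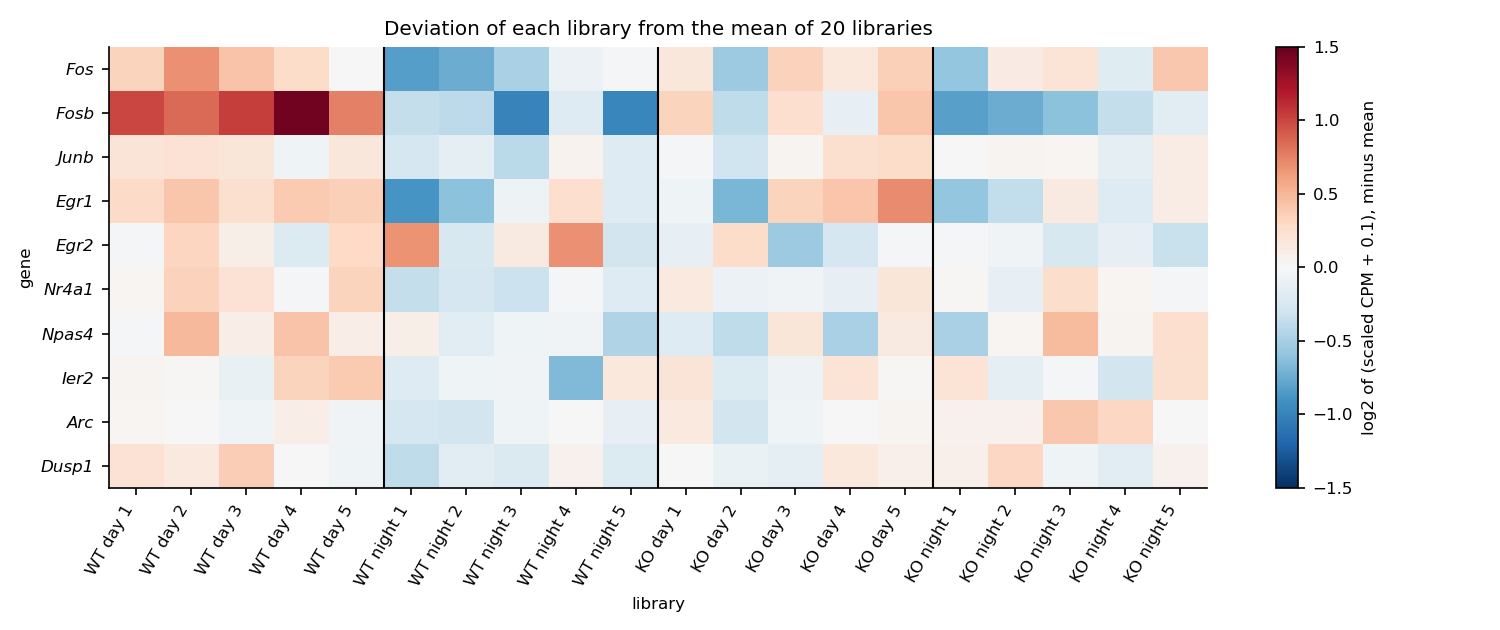
Deviation of each library (columns, by group) from the mean of the 20 libraries for each gene (rows), as a difference of log2(scaled CPM + 0.1) in colour, with red for higher and blue for lower. The WT_day block is mostly red, led by Fosb, WT_night 1, 2, 3 and 5 are mostly blue, and WT_night 4, KO_day 2 and KO_day 5 differ from the rest of their groups.

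Averaged over the 10 genes, the log2 deviation from the mean of all libraries, on log2(CPM + 0.1), was 0.21 to 0.35 in the 5 WT_day libraries, with 7 to 10 of the genes above their mean. The library labelled WT_day 3, at 0.25, was inside that range. In WT_night it was -0.30 to -0.25 in 4 libraries and 0.00 in WT_night 4. KO_day spanned -0.27 (KO_day 2) to 0.22 (KO_day 5) and KO_night -0.21 to 0.07. Summed over the 10 genes, the level was 56.1 to 62.9 CPM by day and 40.2 to 52.7 CPM at night in WT, and 42.3 to 61.1 CPM by day and 48.6 to 56.8 CPM at night in KO. The 2 WT groups did not overlap in these sums and the 2 KO groups did. KO_day 2, the lowest KO_day library, is one of those with contradictory time labels.

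**Figure D4:**
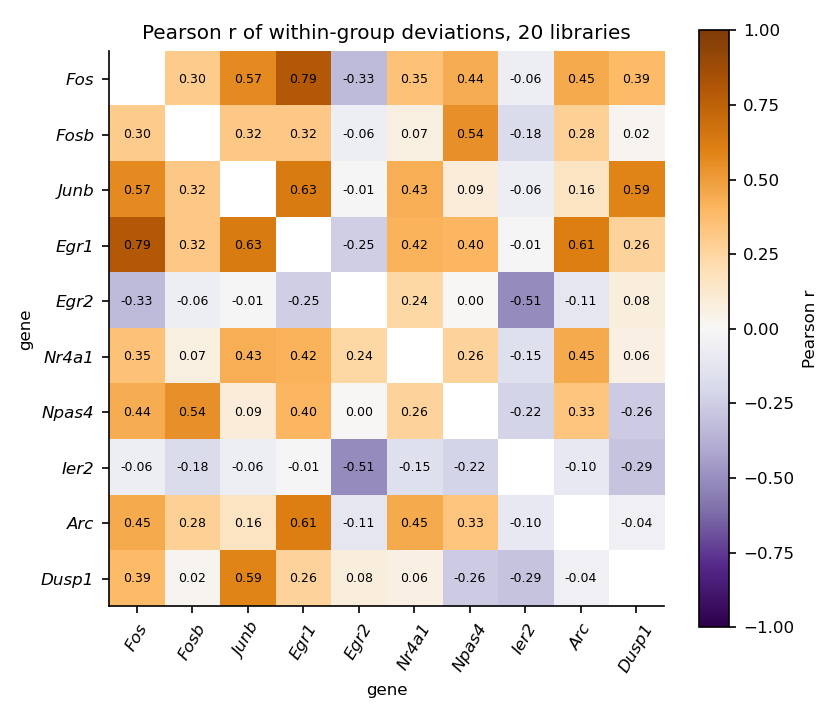
Pearson r between each pair of the 10 genes (both axes) over 20 libraries, of deviations from the library's group mean on the log2 scale. The darkest orange cell is Fos with Egr1, at 0.79, and all 9 values of Ier2 are below 0.

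Within groups, the genes varied together only in part. Over the 45 pairs, the Pearson correlation of deviations from the group means (20 libraries, with shared library depth) had a median of 0.16 and ran from -0.51 to 0.79. It was over 0.5 in 6 pairs: Fos with Egr1 (0.79), Junb with Egr1 (0.63), Egr1 with Arc (0.61), Junb with Dusp1 (0.59), Fos with Junb (0.57) and Fosb with Npas4 (0.54). Ier2 and Egr2, both with few counts, had median correlations of -0.15 and -0.06 with the other genes. The genes outside the set whose within-group deviations were most like the mean of the 10 were Gyg (0.81), Fbxl14 (0.79), Zfp30, Smap2, Ccdc43 and Ago1 (0.78 each), and Crk and Prpf8 (0.77 each). None of these 8 is on a list of activity-dependent genes used here, and none passed for night against day in WT.

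Other genes of the same response were taken from lists of textbook activity-dependent genes. Of 22 other rapid transcription factors tested, 17 had a lower mean at night in WT (median log2 change -0.16) and 15 a lower mean in KO by day (-0.16), and none passed in either comparison by edgeR (10 and 11 at an unadjusted p under 0.05, and 1 in each by DESeq2). Fosl2, another Fos-family subunit of AP-1, was nearest, at -0.56 ± 0.135 at night in WT (edgeR adjusted p = 0.0734) and -0.59 ± 0.134 in KO by day (edgeR adjusted p = 0.0788). At night 2 of the 22 rose in KO and none fell, in the comparison that called 11.9% of all genes. They were Jund (0.25 ± 0.063, edgeR adjusted p = 0.0221), a stable Jun protein, and Ier5 (0.21 ± 0.0658, edgeR adjusted p = 0.0375), a relative of Ier2. Without WT_night 1, 2 and 3, 12 had a lower mean at night in WT and 10 a higher one (median -0.07). Without the library labelled WT_day 3, 15 were lower at night in WT (median -0.15) and 15 in KO by day (median -0.14). Averaged over both times, Jund (0.20 ± 0.0445) and Ier5 (0.18 ± 0.0466) also rose in KO, and Crem, a CRE-binding repressor and activator gene, fell (-0.16 ± 0.0411, edgeR adjusted p = 0.0481). With WT_day 3 removed, Jund alone of these 3 passed (edgeR adjusted p = 0.0397, against 0.0653 for Ier5 and 0.0786 for Crem). None of the 3 passed by the time field (edgeR adjusted p = 0.085 to 0.198), with agreeing labels only (0.107 to 0.245) or without WT_night 1, 2 and 3 (0.222 to 0.406), and Crem did not with the gene length trend removed (0.0729).

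Of 28 other rapid effectors and signalling regulators tested, 24 had a lower mean at night in WT (median -0.12) and 21 a lower mean in KO by day (-0.09). Without WT_night 1, 2 and 3, 16 were lower at night in WT and 12 higher (median -0.03). Without the library labelled WT_day 3, 22 were lower at night in WT (median -0.1) and 19 in KO by day (median -0.05). Apold1, a regulator of endothelial signalling, fell in both, by 0.67 ± 0.129 (edgeR adjusted p = 0.0262) and by 0.64 ± 0.127 (edgeR adjusted p = 0.0395), from 4.01 ± 0.485 CPM in WT_day to 2.52 ± 0.451 in WT_night and 2.58 ± 0.348 in KO_day. Without the library labelled WT_day 3, Apold1 was at -0.67 (edgeR adjusted p = 0.0739) and -0.63 (edgeR adjusted p = 0.0805). By the time field it was at -0.68 (edgeR adjusted p = 0.124) and -0.47 (edgeR adjusted p = 0.0773), and without WT_night 1, 2 and 3 the change at night in WT was -0.59 (edgeR adjusted p = 0.191). At night Fbxo33, an F-box protein gene, rose in KO (0.18 ± 0.0551, edgeR adjusted p = 0.0359), the 1 call among the 28, against 11.9% of all genes. In KO 21 of the 28 had a higher mean at night than by day (median 0.06), and none passed by edgeR (2 at an unadjusted p under 0.05) or by DESeq2.

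**Figure D5:**
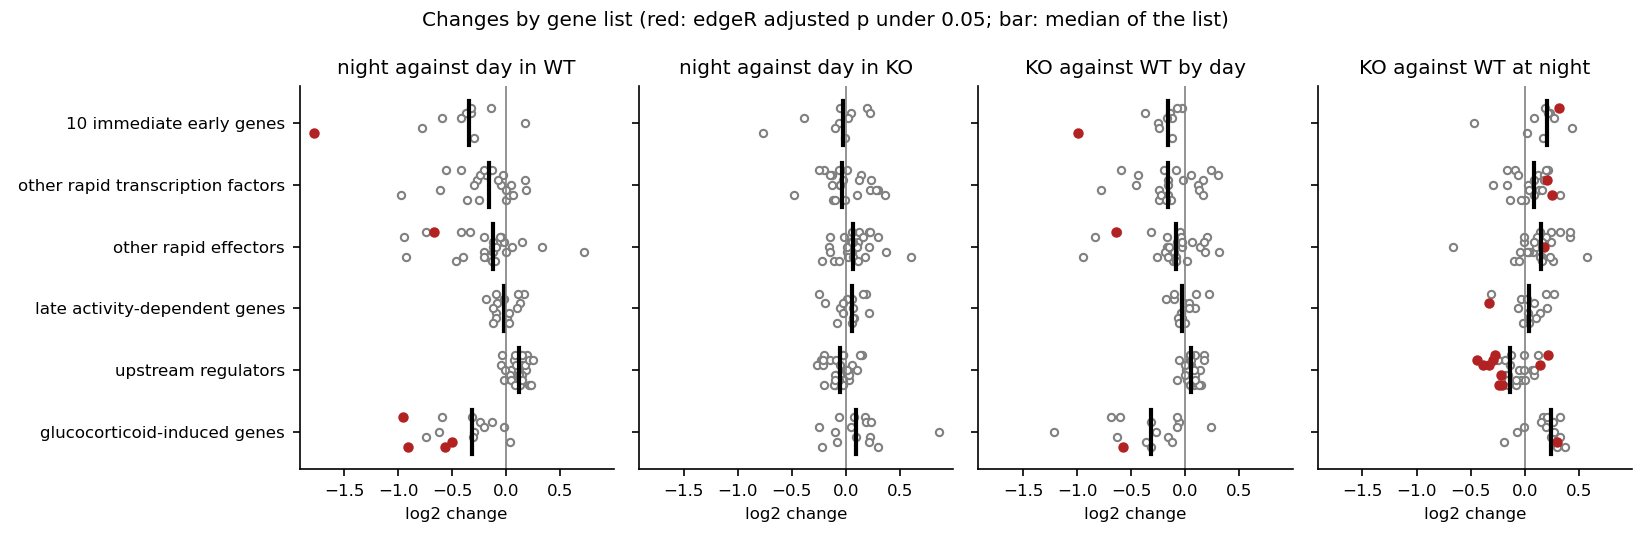
Log2 change of each gene (points, horizontal axis) by list (vertical axis) in 4 comparisons, red where the edgeR adjusted p was under 0.05, with the median of the list as a bar. For night against day in WT the medians are -0.35 for the 10 genes, -0.32 for glucocorticoid-induced genes and -0.02 for late activity-dependent genes.

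The late activity-dependent genes, which follow the rapid ones and include Bdnf and other secreted factors, numbered 15. At night in WT 8 had a lower mean and 7 a higher one (median log2 change -0.02), and in KO by day 9 had a lower mean (median -0.03), with none passing by edgeR or DESeq2 and 1 in each at an unadjusted edgeR p under 0.05. In each comparison 8 were lower without the library labelled WT_day 3 (median -0.01), and without WT_night 1, 2 and 3, 3 were lower at night in WT and 12 higher (median 0.05). Bdnf itself was at -0.02 ± 0.0738 and -0.10 ± 0.0737. Inhba, which encodes a subunit of activin, fell in KO at night (-0.33 ± 0.0857, edgeR adjusted p = 0.023), the 1 call among the 15, against 11.9% of all genes.

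Among 29 upstream regulators (the kinases, channels and factors that act on immediate early genes), none passed between night and day in either genotype or in KO by day by edgeR (11 in WT, 7 in KO and 5 by day at an unadjusted p under 0.05, and 5, 1 and 0 by DESeq2). In KO at night 8 fell and 2 rose, in the comparison that called 11.9% of all genes, with 22 lower and 7 higher (median log2 change -0.14). With the gene length trend removed 1 fell and 3 rose, with 13 lower and 16 higher (median 0.01). Those that fell included the calcium channel gene Cacna1c (-0.44 ± 0.118), the CREB coactivator gene Crtc3 (-0.33 ± 0.0837) and the kinase genes Rps6ka5 (-0.24 ± 0.066) and Rps6ka2 (-0.22 ± 0.0548), with edgeR adjusted p from 0.0198 to 0.0256. With the gene length trend removed, Cacna1c was at -0.16 (edgeR adjusted p = 0.0864), Rps6ka5 at -0.07 (edgeR adjusted p = 0.302) and Rps6ka2 at -0.08 (edgeR adjusted p = 0.209), while Crtc3 passed at -0.21 (edgeR adjusted p = 0.0418).

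Glucocorticoid-induced genes are given because Dusp1 is itself a glucocorticoid target and because the hormone follows a daily rhythm. Of 15 tested, 14 had a lower mean at night in WT and 4 fell: Mt2 (-0.91 ± 0.123, edgeR adjusted p = 0.000967), Zbtb16 (-0.96 ± 0.172), Mt1 (-0.50 ± 0.0911) and Tsc22d3 (-0.57 ± 0.11). By day 14 had a lower mean in KO and Tsc22d3 fell (-0.58 ± 0.11, edgeR adjusted p = 0.031), from 103 ± 17.9 to 69.3 ± 7.1 CPM. Without the library labelled WT_day 3, Mt2 and Zbtb16 fell at night in WT and none in KO by day, with 12 of the 15 means lower in each, and Tsc22d3 by day was at -0.45 (edgeR adjusted p = 0.0805). By the time field Tsc22d3 by day was at -0.35 (edgeR adjusted p = 0.191). None of the 4 passed at night in WT by the time field (edgeR adjusted p = 0.119 to 0.289) or without WT_night 1, 2 and 3 (0.0586 to 0.27), with 13 of the 15 means lower in each case. The 15 genes summed to 411 to 650 CPM in WT_day and 329 to 362 CPM in WT_night, which did not overlap. Of these genes, Per1 is also counted among the other rapid transcription factors, and Sgk1 and Errfi1 among the other rapid effectors. Mt1 rose in KO at night (0.30 ± 0.0912, edgeR adjusted p = 0.0368), the 1 call among the 15, against 11.9% of all genes. The calls in KO at night of all 9 genes named here from the other lists (Jund, Ier5, Fbxo33, Inhba, Cacna1c, Crtc3, Rps6ka5, Rps6ka2 and Mt1) were lost by the time field (edgeR adjusted p = 0.918 to 0.936), with agreeing labels only (0.3 to 0.598) and without WT_night 1, 2 and 3 (0.415 to 0.795). Those of Ier5, Cacna1c, Mt1, Rps6ka5 and Rps6ka2 were lost also with the gene length trend removed, and that of Fbxo33 without the library labelled WT_day 3 (edgeR adjusted p = 0.0503).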

How the data were processed

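Deposited were raw read counts of genes. The authors aligned reads with HISAT2 to mm10 and made the counts with featureCounts, per the submitters' processing notes. Versions, annotation and strand setting are not given in the sources used here. Of 53801 gene identifiers, 53706 matched GENCODE M21 (GRCm38), which gave symbols and positions. Coding genes inside a coding gene were at 0 in 99.7% of 314 cases on the same strand and 5.62% of 534 on the opposite strand. This is as when reads are counted over gene spans with each strand apart. Genes that overlap another gene on the same strand are therefore uncertain.

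Groups follow the titles (the time field for KO_day 5). WT_day 5 carries a title number already taken and was given the free one. All 20 libraries entered 1 edgeR 4.0.16 quasi-likelihood fit of 4 group means in R 4.3.3 (TMM factors 0.945 to 1.08, 22181 genes left by filterByExpr at a minimum count of 10), with Benjamini-Hochberg adjustment over all of them and a threshold of 0.05. "Rose" and "fell" mean passing it. The fit was tested on simulated data. Within groups the 40 library pairs differed by more than counting error (chi-square per degree of freedom 5.58 to 53.7). Alternatives were DESeq2 1.42.0, other scaling, no filter, a replicate block, the time field, agreeing labels only, a gene length trend (loess, span 0.5) and each library left out. The removal of WT_night 1, 2 and 3 was added after seeing the data. DESeq2 adjusted p values given as NA were kept as NA.

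The 10 genes, the lists and the tests were chosen with earlier results of these data known. Named genes are the 10, up to 4 passing genes per activity, upstream or glucocorticoid list and comparison by p, and the 8 genes of mean CPM of at least 1 most like the mean of the 10. Fosl2 and Bdnf were named after their values were seen.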

Additional observations from a re-analysis of the deposited data

Results flagged for a closer look

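In 4 of 48 groups of 5 libraries (the 10 genes, Ndn and Magel2 in 4 groups each), 1 library stood farther from the other four than Dixon's test allows at 95%, which chance alone gives in about 1 group in 20. Ndn at 31.0 CPM and Magel2 at 2.16 CPM were both far below their group in the library labelled WT_day 3. Among the immediate early genes, Fos was low in KO_day 2, at 3.37 CPM against 5.57 to 6.42 CPM in the rest of KO_day. Junb was low in WT_day 4, at 15.2 CPM against 17.8 to 18.5 CPM in the rest of WT_day.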

How the results depend on the processing

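Of 196 recomputed counts of immediate early genes that passed, 165 equalled the value in the report. With DESeq2 the count was 0 for KO against WT by day, 2 for KO against WT at night, 3 for night against day in WT, 0 for night against day averaged over both genotypes and 1 for the interaction. Of all genes, DESeq2 called 0.857%, 15.9%, 1.84%, 0.965% and 5.48% in these comparisons, in that order. DESeq2 left Fosb without an adjusted p. Without a filter on low counts, 3 passed for night against day in WT. With groups from the time field, 0 passed for KO against WT at night, 0 for night against day in WT and 0 for the averaged night effect. With agreeing labels only, 0 passed for KO against WT by day and 0 at night, and without WT_night 1, 2 and 3, 0 passed at night. The cause of these shifts was not tested.

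With each library left out in turn, the count ran from 0 to 1 by day, from 0 to 3 at night, from 1 to 2 for night against day in WT and from 0 to 2 for the interaction. With the time field, night against day in KO was 0.07 for Fosb and -0.03 for Arc, the opposite sign to the report. No log2 change of the 10 genes changed sign with another scaling, tool or filter, the replicate block or the length trend, and 24 of 29 sign changes outside the removals of 1 library came with the time field or agreeing labels. CPM without mitochondrially encoded genes in the total moved 36 of the 40 group means by more than their SD. The replicate numbers do not pair the samples (3 of 30 same-numbered pairs correlated above 0.1, median -0.02, and 4 of 20 libraries correlated best with their own number). With the replicate block Fosb had an adjusted p of 0.0466 by day and 0.00138 at night in WT, Arc had 0.0357, and the count was the same in all 7 comparisons.

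Counts over all genes moved by more than 1.5 times in 108 of 196 recomputations. Over all alternatives, the 2649 genes that passed for KO against WT at night became 4 (time field) to 4355 (without WT_night 4), with 6 for agreeing labels, 11 without WT_night 1, 2 and 3 and 1689 with the replicate block. The 25 by day became 15 to 190, the 61 for night against day in WT 0 to 409, the 16 in KO 0 to 591, the 291 for the averaged KO effect 19 to 1265, the 26 for the averaged night effect 1 to 214 and the 0 of the interaction 0 to 1555 (1215 with DESeq2, 105 without a filter). Depth limits Fosb (11 to 77 counts per library), Egr2 (10 to 28) and Ier2 (23 to 61) most.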
